A study of Mus musculus with 6 samples.

Results

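The miR-17-92 cluster is a run of 6 microRNA hairpins carved from a single long non-coding transcript, Mir17hg. Its 10 mature miRNAs in the deposited expression table, of 1034 named there, were taken by name, and for names with more than 1 genomic copy the chromosome 14 copy was used. They comprised 6 main arms (mmu-miR-17-5p, mmu-miR-18a-5p, mmu-miR-19a-3p, mmu-miR-20a-5p, mmu-miR-19b-3p and mmu-miR-92a-3p) and 4 opposite arms (mmu-miR-17-3p, mmu-miR-18a-3p, mmu-miR-20a-3p and mmu-miR-92a-1-5p), written below without the mouse prefix. Small RNA had been sequenced from nephron progenitor cells, the self-renewing cells of the kidney cortex from which nephrons form. The mice were of the CD1 strain and were either embryos at E14.5 or pups at P0, the day they were born, with 3 libraries for each stage. No gene was altered and no agent was given in either group, as far as the labels say. Each library was a pool of up to 24 kidneys of 1 litter, and progenitors were captured on beads with an antibody to the integrin Itga8 after a short digestion, so a library reports a litter pool and not an animal.

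The cluster is a direct target of Myc and is known for promoting proliferation and survival in embryos and tumours. Its products fall into families defined by the seed, the stretch from base 2 to base 8 that pairs with target messages. Families can differ in the targets they repress, and the miR-17 seed is known for repressing Cdkn1a. In the kidney, loss of the cluster from nephron progenitors is known to reduce progenitor proliferation and nephron number.

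The main arms are shown first because they group the results by seed. Sequences are those of RefSeq (GRCm38.p6), written 5′ to 3′ with the seed in capitals; all 10 members matched RefSeq entries at the same positions as the table. The first pair shares the miR-17 seed, the next has the miR-18 seed, a further pair shares the miR-19 seed, and the last has the miR-92 seed.
miR-17-5p: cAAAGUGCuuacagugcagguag
miR-20a-5p: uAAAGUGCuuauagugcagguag
miR-18a-5p: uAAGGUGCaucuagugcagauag
miR-19a-3p: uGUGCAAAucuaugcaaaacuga
miR-19b-3p: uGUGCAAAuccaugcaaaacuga
miR-92a-3p: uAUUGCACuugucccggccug

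Counted from 1 at the 5′ end, with the miR-17-5p base first, miR-20a-5p differed from miR-17-5p only by C1U and C12U. The miR-19 arms differed by 1 base, U11C from miR-19a-3p to miR-19b-3p. The 4 opposite arms, shown because they come from the same hairpins with seeds of their own, had 4 different seeds.
miR-17-3p: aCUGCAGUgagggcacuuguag
miR-18a-3p: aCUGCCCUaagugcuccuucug
miR-20a-3p: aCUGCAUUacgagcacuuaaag
miR-92a-1-5p: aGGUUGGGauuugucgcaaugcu

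All members lay on the forward strand of chromosome 14 in exon 2 (115043271 to 115046727, GRCm38) of Mir17hg, which GENCODE lists as a lincRNA at 115042879 to 115046727. From the first base of miR-17-5p (115043684) to the last base of miR-92a-3p (115044496) they spanned 813 bases. Their order along the transcript was the hairpins of miR-17, miR-18a, miR-19a, miR-20a, miR-19b-1 and miR-92a-1.

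Library totals ranged from 2649506 to 34934526 recovered reads, and the lowest totals, 2649506 and 5128723, both belonged to E14.5. Levels are TPM, read counts per length scaled to the same total in each library. Differences between stages are log2 fold changes of P0 over E14.5 with their standard error (SE), from limma fitted to the 670 miRNAs whose mean reached 1 TPM. A miRNA was called at a Benjamini-Hochberg adjusted p below 0.05 over those 670. In TPM, 229 miRNAs were called, 220 of them lower at P0, and the median log2 fold change over all tested was -1.20. P0 replicate 1 stood apart in its effect on the calls. Without it 410 miRNAs were called, against 66 to 157 when any other library was left out. It lay within the E14.5 range for 28.2% of tested miRNAs, a share not computed for the other P0 libraries. Rescaling by median-of-ratios factors, which centre each library on its typical miRNA, moved the median to -0.18 and left 73 called, 38 higher and 35 lower. The stage differences of the members are therefore given on both scales and, where a call or size turns on it, without P0 replicate 1. The p-values measure the spread between litter pools. In bulk samples, fewer cells of a type and less RNA per cell cannot be told apart.

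Most members of the cluster were lower at P0 in TPM. On that scale 7 of the 10 members fell, against 32.8% of all tested miRNAs called lower, and 0 rose, against 1.34% called higher. The members' median log2 fold change was -2.83. The 7 were miR-17-5p, miR-18a-5p, miR-18a-3p, miR-19a-3p, miR-20a-5p, miR-20a-3p and miR-19b-3p. Both products of the miR-92a-1 hairpin and miR-17-3p were not called. In 8 of 10 members every P0 library was below every E14.5 library, which held for 46.4% of all tested miRNAs; the exceptions were miR-17-3p and miR-19b-3p, where P0 replicate 1 lay within the E14.5 range. P0 replicates 2 and 3 were below all E14.5 libraries for 10 of 10 members, against 63.6% of all.

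**Figure D1:**
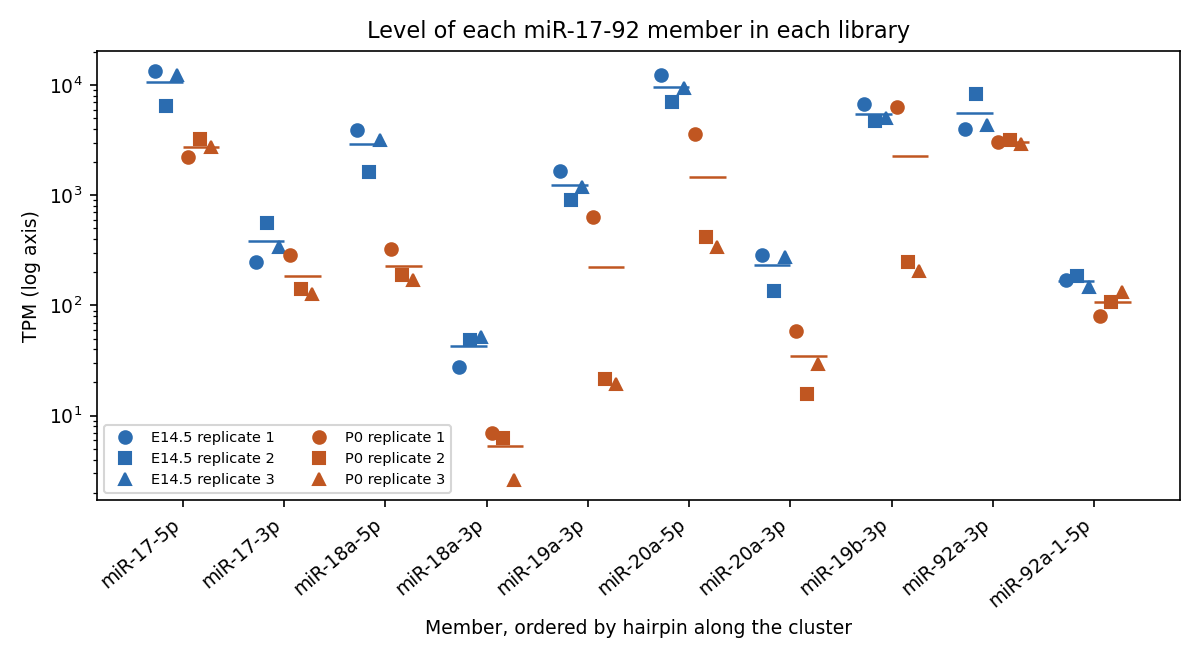
Level of each of the 10 members in TPM (log axis) in the 3 E14.5 libraries (blue) and the 3 P0 libraries (orange), with horizontal lines at the stage means. P0 replicate 1 (orange circles) lies far above the other P0 libraries for miR-19a-3p, miR-20a-5p and miR-19b-3p, and near them for miR-17-5p, miR-92a-3p and miR-18a-3p.

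The fall depended on the scale. With median-of-ratios scaling 1 of 10 members was called lower, miR-18a-5p, against 5.22% of all tested miRNAs, and 0 higher, against 5.67%. The median of the members was -1.62. limma-voom on the recovered reads also called 1 member lower, miR-18a-5p (adjusted p = 0.0438), against 1.64% of all. On the median-of-ratios scale 4 of 10 members had every P0 library below every E14.5 library, against 19.6% of all. The log2 fold changes of miR-17-3p (0.21), miR-92a-3p (0.49) and miR-92a-1-5p (0.60) became positive there and were not called. Without P0 replicate 1, 8 of 10 members were called lower in TPM, against 53.4% of all. Without it on the median-of-ratios scale, 6 were called lower, against 27.2% of all, and 1, miR-92a-1-5p, was called higher, against 21.6% of all. The 6 were both miR-18a arms, both miR-20a arms, miR-19a-3p and miR-19b-3p.

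**Figure D2:**
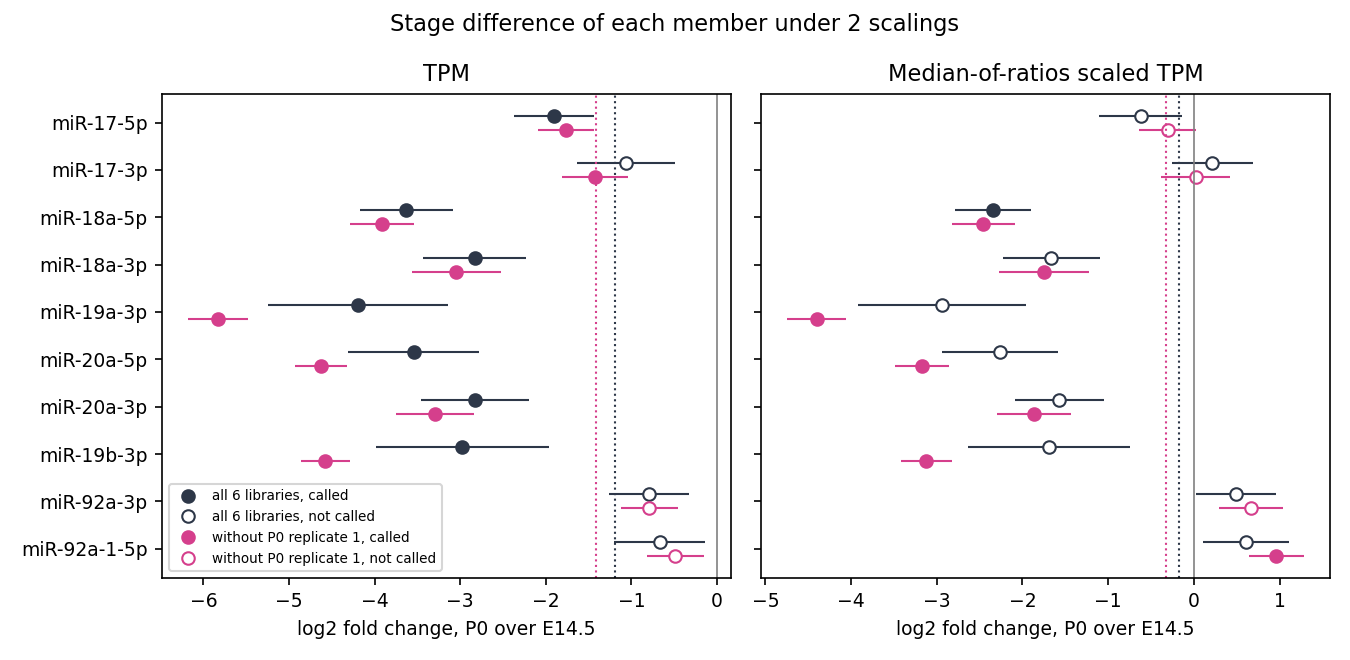
Log2 fold change of P0 over E14.5 with its SE from limma for each member, in TPM (left) and after median-of-ratios scaling (right), with all 6 libraries (dark) or without P0 replicate 1 (pink); filled points were called and dotted lines are the medians of all tested miRNAs. The miR-92a-1 products sit to the right of the median of all in both panels, and the miR-18a, miR-19 and miR-20a products to its left.

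The miR-17 seed pair was the most abundant at E14.5. miR-17-5p stood at 13378, 6468 and 12249 TPM at E14.5 and at 2226, 3252 and 2771 TPM at P0, each listed from replicate 1 to replicate 3 here and below. The stages did not overlap, and P0 replicate 1 was the lowest library. The P0 over E14.5 difference in log2 was -1.91 (SE 0.47, limma adjusted p = 0.0101). It was -0.62 (SE 0.48, limma adjusted p = 0.382) on the median-of-ratios scale. The call in TPM was lost without E14.5 replicate 1 (-1.71, limma adjusted p = 0.0554) or without E14.5 replicate 3 (-1.78, limma adjusted p = 0.0672). miR-20a-5p stood at 12341, 7080 and 9334 TPM at E14.5 and at 3628, 419.8 and 337 TPM at P0. Here too every P0 library was below every E14.5 library, but P0 replicate 1 was the highest of its stage. The log2 fold change of miR-20a-5p was -3.54 (SE 0.77, limma adjusted p = 0.0065) in TPM. Median-of-ratios scaling gave -2.26 (SE 0.68, limma adjusted p = 0.0571), and without P0 replicate 1 it was -4.63 in TPM and -3.17 after that scaling, both called. For miR-20a-5p the mean of P0 replicates 2 and 3 was 25.3-fold below the E14.5 mean, against 3.55-fold for miR-17-5p.

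miR-18a-5p, known for repressing Ctgf and other members of the TGF-beta response, was the member called under both scalings. It stood at 3893, 1642 and 3148 TPM at E14.5 and at 326, 189 and 171 TPM at P0. The 3 P0 libraries lay close together and far below all E14.5 libraries. The fall was -3.63 in log2 (SE 0.54, limma adjusted p = 0.0033), and -2.35 (SE 0.44, limma adjusted p = 0.0309) after rescaling by median-of-ratios factors. Among tested miRNAs, 3.28% had a lower log2 fold change in TPM. On the median-of-ratios scale the call was lost when E14.5 replicate 1, E14.5 replicate 3, P0 replicate 2 or P0 replicate 3 was left out (limma adjusted p between 0.0744 and 0.169).

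The miR-19 arms were the most uneven between P0 libraries. miR-19a-3p stood at 1659, 910.03 and 1188 TPM at E14.5 and at 632, 21.4 and 19.4 TPM at P0. miR-19b-3p, the other product with this seed, stood at 6780, 4712 and 5057 TPM at E14.5 and at 6360, 250.5 and 206 TPM at P0. For both, P0 replicates 2 and 3 nearly coincided; P0 replicate 1 was within the E14.5 range for miR-19b-3p and below it for miR-19a-3p. The log2 fold change was -4.20 for miR-19a-3p (SE 1.05, limma adjusted p = 0.0111). For miR-19b-3p it was -2.98 (SE 1.01, limma adjusted p = 0.0392). Without P0 replicate 1 these became -5.83 (SE 0.35) and -4.58 (SE 0.29). With median-of-ratios scaling miR-19a-3p stood at -2.94 (SE 0.98, limma adjusted p = 0.0751) and miR-19b-3p at -1.69 (SE 0.95, limma adjusted p = 0.228), and without P0 replicate 1 on that scale at -4.40 and -3.12, both called. The call of miR-19a-3p was lost without E14.5 replicate 3 (-4.22, limma adjusted p = 0.0532). That of miR-19b-3p was lost when any 1 of the other 5 libraries was left out, with limma adjusted p between 0.0938 and 0.117. It was also lost with a filter at a mean of 10 TPM (limma adjusted p = 0.0528) and with a pseudocount of 0.1 (limma adjusted p = 0.0524).

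miR-92a-3p, the last main arm, is known for repressing integrin alpha-5 in endothelium. It stood at 4028, 8337 and 4373 TPM at E14.5 and at 3058, 3156 and 2936 TPM at P0. The P0 libraries were nearly equal and all below E14.5, whose replicate 2 was well above the other E14.5 libraries. In log2 the difference came to -0.79 (SE 0.47, limma adjusted p = 0.186). P0 replicate 1 did not stand apart for this member, and without it the value was -0.79 (SE 0.33, limma adjusted p = 0.0573).

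The opposite arms, usually the less stable strand of a hairpin, were each below the main arm of the same hairpin in every library. miR-17-3p stood at 246, 565 and 339 TPM at E14.5 and at 286, 141 and 126 TPM at P0, with P0 replicate 1 inside the E14.5 range. In log2 it differed by -1.07 (SE 0.57, limma adjusted p = 0.151). Without P0 replicate 1 it was called lower in TPM (-1.43, SE 0.39, limma adjusted p = 0.0078), though not on the median-of-ratios scale, where its value was 0.021. miR-20a-3p stood at 289.6, 135.8 and 275 TPM at E14.5 and at 58.3, 15.8 and 29.7 TPM at P0, and miR-18a-3p at 27.6, 48.2 and 52.1 TPM and at 6.99, 6.21 and 2.61 TPM. Neither overlapped between the stages, and both fell by 2.83 on the log2 scale (limma adjusted p = 0.0070 for miR-20a-3p and 0.0061 for miR-18a-3p). With median-of-ratios scaling they stood at -1.57 (SE 0.52, limma adjusted p = 0.0742) and -1.67 (SE 0.57, limma adjusted p = 0.0771). Without E14.5 replicate 3, miR-20a-3p in TPM was no longer called (limma adjusted p = 0.0519). miR-92a-1-5p stood at 169, 186 and 149 TPM at E14.5 and at 80.7, 107 and 132 TPM at P0. Its stages did not overlap in TPM, with a log2 difference of -0.67 (SE 0.53, limma adjusted p = 0.316). Read support ranged from 56 reads, for miR-18a-3p in P0 replicate 3, to 231691 reads, for miR-19b-3p in P0 replicate 1.

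The order of levels within the cluster differed between the stages, with miR-19b-3p taken from its chromosome 14 row alone. At E14.5 the order by mean was miR-17-5p (10698 ± 3707 TPM, SD, n = 3), miR-20a-5p (9585 ± 2639), miR-92a-3p (5579 ± 2394), miR-19b-3p (5516 ± 1108), miR-18a-5p (2894 ± 1147) and miR-19a-3p (1252 ± 378). Neighbours in that order overlapped in their ranges except miR-19b-3p and miR-18a-5p. At P0 the order was miR-92a-3p (3050 ± 111 TPM, SD, n = 3), miR-17-5p (2750 ± 513), miR-19b-3p (2272 ± 3540), miR-20a-5p (1462 ± 1876), miR-18a-5p (229 ± 85.0) and miR-19a-3p (224 ± 353), where the SD of the miR-19 and miR-20a arms exceeded their means. The ranges at P0 were separate only between miR-20a-5p and miR-18a-5p. In P0 replicates 2 and 3 alone the order by mean was miR-92a-3p (3046 TPM), miR-17-5p (3011), miR-20a-5p (379), miR-19b-3p (228), miR-18a-5p (180) and miR-19a-3p (20.4), and among these neighbours only miR-92a-3p and miR-17-5p overlapped. Among all miRNAs, miR-17-5p ranked 22 by mean TPM at E14.5 and 42 at P0, miR-92a-3p 35 and 39, and miR-18a-5p 51 and 122.

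Summed over all members, the cluster held 42810, 30083 and 36164 TPM at E14.5 and 16662, 7559 and 6730 TPM at P0. These sums were 4.28, 3.01 and 3.62% of library TPM at E14.5 and 1.67, 0.756 and 0.673% at P0. The make-up of the main-arm sum also differed between libraries. The miR-19 seed group made 20.1, 19.3 and 17.7% of it at E14.5 and 43.1, 3.73 and 3.50% at P0. The miR-92 group, miR-92a-3p alone, made 9.57, 28.6 and 12.4% at E14.5 and 18.8, 43.3 and 45.6% at P0. The sums carry no test, because the members were chosen.

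Because the hairpins share 1 transcript, each main arm was also read relative to miR-17-5p within a library, a ratio that library scaling leaves unchanged. miR-18a-5p stood at 0.291, 0.254 and 0.257 of miR-17-5p at E14.5 and at 0.147, 0.0581 and 0.0616 at P0. All 3 P0 ratios were below all E14.5 ratios (exact two-sided permutation p = 0.1, the smallest that 3 against 3 allows; 0.5 after adjustment over 5 ratios). This held for 1 of the 5 main arms and, relative to miR-17-5p in the same way, for 7.03% of the other 669 tested miRNAs. miR-20a-5p stood at 0.923, 1.09 and 0.762 at E14.5 and at 1.63, 0.129 and 0.122 at P0. P0 replicate 1 was thus above every E14.5 library, and the other P0 libraries were far below them (exact permutation p = 0.4). miR-19a-3p, at 0.124, 0.141 and 0.0970 and then 0.284, 0.0066 and 0.0070, split in the same way (exact permutation p = 0.4). So did miR-19b-3p, at 0.507, 0.728 and 0.413 and then 2.86, 0.0770 and 0.0743 (exact permutation p = 0.6). miR-92a-3p stood at 0.301, 1.29 and 0.357 at E14.5 and at 1.37, 0.971 and 1.06 at P0, with E14.5 replicate 2 among the P0 values (exact permutation p = 0.3). Without P0 replicate 1, 4 of 5 ratios were lower in both remaining P0 libraries than in every E14.5 library, against 32.6% of the 669, with an exact permutation p of 0.2 each, the smallest that 2 against 3 allows.

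**Figure D3:**
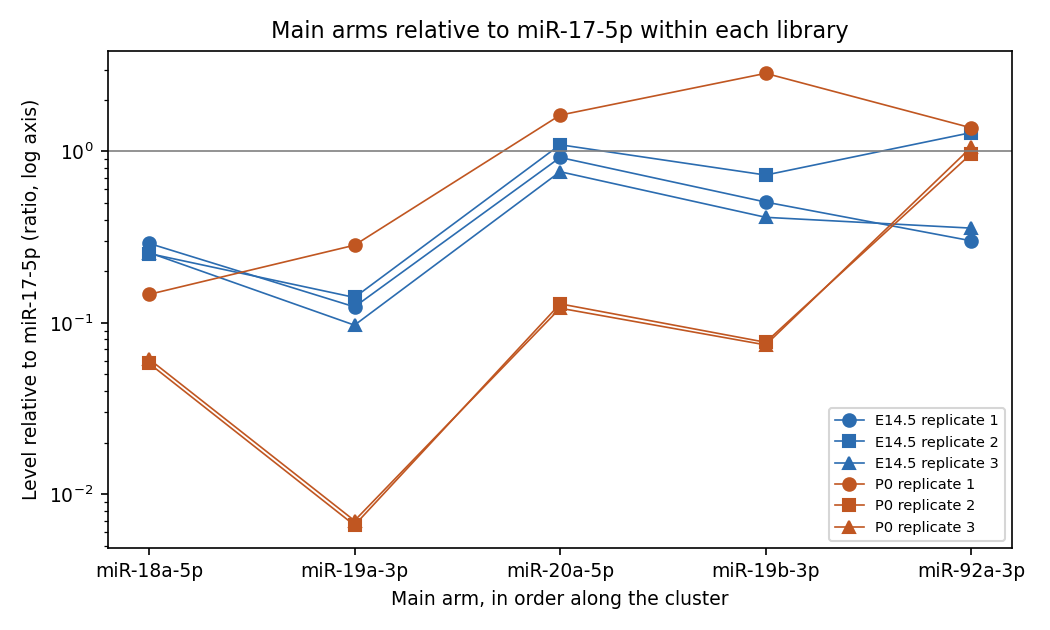
Ratio of each main arm to miR-17-5p within a library (log axis), with lines joining the arms of 1 library, for 3 E14.5 (blue) and 3 P0 libraries (orange). P0 replicates 2 and 3 nearly coincide, and P0 replicate 1 is above all other libraries for miR-19a-3p, miR-20a-5p, miR-19b-3p and miR-92a-3p.

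The 5p to 3p ratio of a hairpin compares its arms within a library. miR-17-5p was 54.4, 11.5 and 36.1 times miR-17-3p at E14.5 and 7.78, 23.1 and 22.0 times at P0. miR-18a-5p was 141, 34.0 and 60.5 times miR-18a-3p at E14.5 and 46.7, 30.4 and 65.5 times at P0, and miR-20a-5p was 42.6, 52.1 and 33.9 times and then 62.3, 26.7 and 11.4 times miR-20a-3p. miR-92a-3p was 23.9, 44.8 and 29.4 times miR-92a-1-5p at E14.5 and 37.9, 29.5 and 22.2 times at P0. The stages overlapped for all 4 of these hairpins, whose arms are both members. Of the 4, limma called 0 with all libraries or without P0 replicate 1. Over all 245 hairpins with both arms measured, limma called 0 by adjusted p with all libraries (0.0%) and 70 (28.6%) at an unadjusted p below 0.05. Without P0 replicate 1 it called 107 (43.7%).

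Of the other arms of the same transcript, miR-19a-5p stood at 35.6, 18.5 and 43.7 TPM at E14.5 and at 3.25, 21.9 and 49.5 TPM at P0, so that the stages overlapped. Relative to miR-19a-3p it stood at 0.0215, 0.0204 and 0.0368 at E14.5 and at 0.0051, 1.02 and 2.55 at P0. In P0 replicates 2 and 3 the usually minor arm was thus as abundant as the main arm or more so. The log2 difference of that ratio was 3.30 (SE 2.10, limma adjusted p = 0.305) with all libraries and 5.93 (SE 0.52, limma adjusted p = 0.0015) without P0 replicate 1. miR-19b-1-5p, from the miR-19b-1 hairpin, stood at 67.9, 43.2 and 47.7 TPM at E14.5 and at 8.26, 3.48 and 4.53 TPM at P0. It fell by 3.11 on the log2 scale (SE 0.58, limma adjusted p = 0.0044), and its level in P0 replicate 1 was low, unlike that of miR-19b-3p.

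A seed is shared beyond the cluster, so the members were set against all miRNAs that carry it. The main relatives come from the miR-106b-25 cluster, inside an intron of the replication gene Mcm7, and from the X-linked miR-106a-363 cluster. The sequences below are those of some of these relatives. Other carriers of the seeds, miR-106b-5p and miR-32-5p among them, also count in the shares that follow.
miR-93-5p: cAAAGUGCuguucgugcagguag
miR-106a-5p: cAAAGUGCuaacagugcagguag
miR-20b-5p: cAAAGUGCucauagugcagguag
miR-18b-5p: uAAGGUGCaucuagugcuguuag
miR-25-3p: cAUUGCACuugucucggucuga

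miR-17-5p and miR-20a-5p made 66.0, 40.7 and 62.5% of the TPM of the 6 miRNAs with the miR-17 seed at E14.5. They made 21.4, 38.7 and 34.3% at P0, below every E14.5 library (exact two-sided permutation p = 0.1, the smallest possible; 0.4 after adjustment over 4 seeds). Most of the rest was miR-93-5p, which stood at 11705, 19087 and 11677 TPM at E14.5 and at 21263, 5728 and 5856 TPM at P0. The share of miR-92a-3p among the 5 miRNAs with its seed was 25.2, 35.5 and 27.9% at E14.5 and 13.0, 31.1 and 30.5% at P0, and the stages overlapped (exact permutation p = 0.7). miR-25-3p, the main other carrier of that seed, stood at 11066, 14905 and 10715 TPM at E14.5 and at 20287, 6902 and 6605 TPM at P0. miR-18a-5p made between 95.4 and 98.9% of its seed in the 6 libraries, with miR-18b-5p as the remainder. Among the 885 names with a sequence, none other than miR-19a-3p and miR-19b-3p had the miR-19 seed, and miR-19b-3p has a second copy on the X chromosome.

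**Figure D4:**
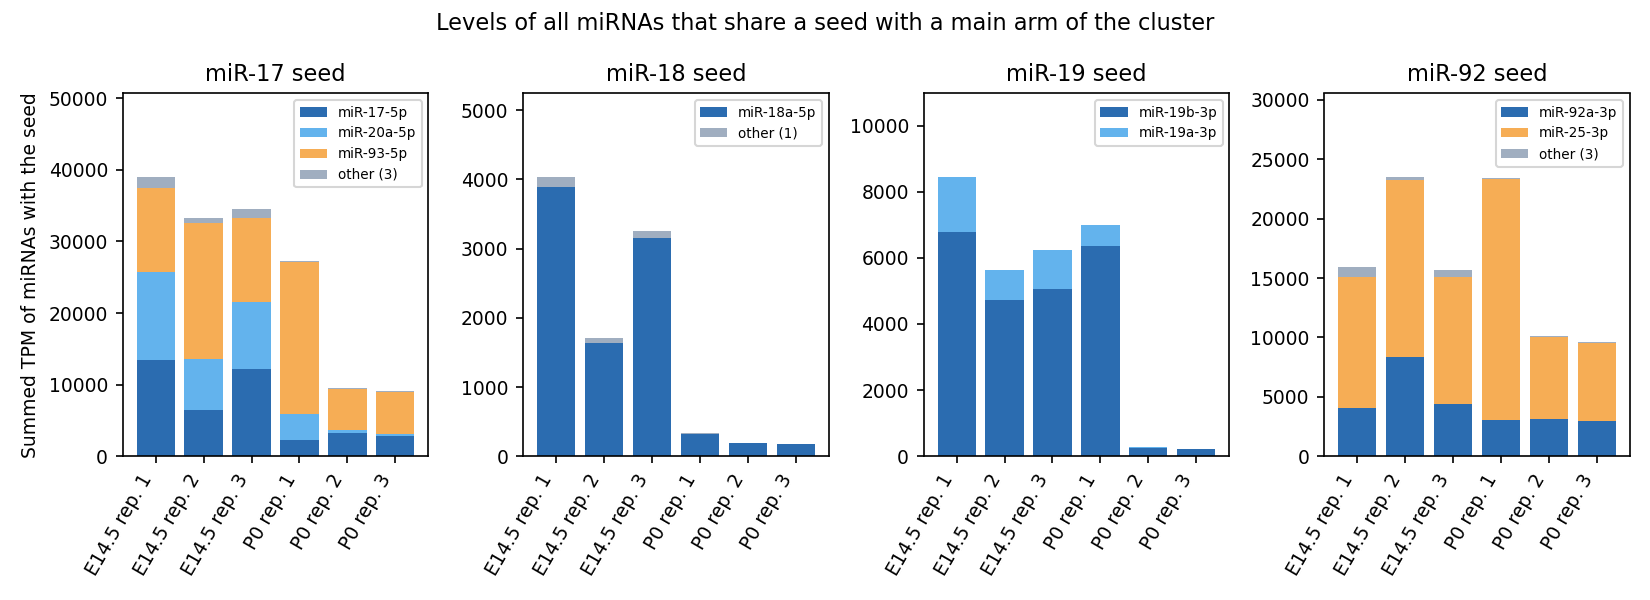
Summed TPM (linear axes, each from 0) of all miRNAs that share a seed with a main arm, per library, with cluster members in blue, the largest relative from the Mcm7 cluster in orange and the others in grey. The orange part exceeds the blue part for the miR-17 seed in E14.5 replicate 2 and in all 3 P0 libraries, and for the miR-92 seed in all 6 libraries.

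Of 18 listed relatives (the other arms of the cluster and both related clusters), 16 were in the table and 14 passed the filter. In TPM 8 of the 14 fell and 0 rose, against 32.8% and 1.34% of all tested; the median was -1.74. The X-linked cluster had 5 of 6 tested arms called lower. Its miR-106a-5p, which differs from miR-17-5p by U10A, stood at 297, 143 and 221 TPM at E14.5 and at 24.3, 27.3 and 26.1 TPM at P0 and fell by 2.98 on the log2 scale (SE 0.55, limma adjusted p = 0.0044). miR-20b-5p went from 237, 194 and 199 TPM to 26.5, 3.22 and 3.95 TPM and miR-18b-5p from 139, 67.8 and 112 TPM to 3.49, 6.23 and 8.26 TPM. No P0 library reached the E14.5 range for any of these. Both stayed called with median-of-ratios scaling, as did miR-363-3p and miR-19b-1-5p (4 of 14 in all, against 5.22%). With limma-voom on recovered reads 2 of 14 stayed called, miR-20b-5p and miR-18b-5p, against 1.64%. There miR-363-3p and miR-19b-1-5p were not called (limma-voom adjusted p = 0.0607 for each). Nor were they called in the blocked median-of-ratios fit (limma adjusted p = 0.0788 and 0.0549). In the Mcm7 cluster 2 of 6 arms were called lower in TPM, miR-106b-5p and miR-106b-3p, and miR-93-5p and miR-25-3p were not called (limma adjusted p = 0.367 and 0.627). Without P0 replicate 1, 5 of 6 arms were called lower in each of the Mcm7 and X-linked clusters, against 53.4% of all. miR-93-5p then stood at -1.25 (limma adjusted p = 0.0030) and miR-25-3p at -0.84 (limma adjusted p = 0.0158) in TPM. On the median-of-ratios scale both were positive and not called, at 0.66 and 0.97 with all libraries and at 0.21 and 0.62 without P0 replicate 1.

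Members with a second copy on the X chromosome needed care. The mature miR-19b-3p is identical at both copies, and the X row held between 99.8 and 100.5% of the TPM of the chromosome 14 row in each library, so its reads cannot be assigned to a locus. Whether each read was counted in both rows or the reads were divided between them cannot be told apart from these rows. If they were divided, the level of miR-19b-3p is the sum of both rows, 11051 ± 2207 TPM (SD, n = 3) at E14.5 and 4551 ± 7093 TPM at P0, which would place it first by mean at both stages and raise its ratios and shares. The first place at P0 rests on P0 replicate 1, since the sums were 12741, 501 and 412 TPM in P0 replicates 1, 2 and 3. Its log2 fold change with the rows summed was -2.98 (limma adjusted p = 0.0408). For miR-92a-3p the X row held between 2.76 and 4.06% of the TPM of the chromosome 14 row. The copies differ in flanking bases, shown here in lower case around the mature sequence in capitals, chromosome 14 first.
miR-92a-3p, chromosome 14: auggUAUUGCACUUGUCCCGGCCUGuuga
miR-92a-3p, X chromosome: aaagUAUUGCACUUGUCCCGGCCUGagga

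The arm unique to the X-linked miR-92a copy, miR-92a-2-5p, had at most 1.14 TPM in an E14.5 library and was at 0 in all P0 libraries. miR-19b-2-5p and miR-106a-3p had no row under these names in the deposited data. How reads were divided between near-identical arms (miR-19a-3p and miR-19b-3p, miR-17-5p and miR-106a-5p) depended on the authors' counting, and these levels are uncertain to that degree.

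GC content moved with the size of the difference. The members ranged from 34.8% GC in miR-19a-3p to 57.1% in miR-92a-3p, and the Spearman correlation of GC content with log2 fold change was 0.75 over the 10 members and 0.38 over the 582 tested miRNAs with a sequence. The members share libraries and a transcript, so these are descriptions without a p. Over those 582 miRNAs the median log2 fold change was -2.12 below 40% GC, -1.40 from 40% to 50% and -0.74 from 50%. With that trend removed, 6 of 10 members were called lower, against 34.5% of the 582. Here miR-19b-3p (limma adjusted p = 0.0522) was no longer among them. At 47.8% GC the members and relatives ranged in log2 fold change from -0.67 for miR-92a-1-5p, through -1.91 for miR-17-5p, -2.98 for miR-106a-5p and -3.11 for miR-19b-1-5p, to -4.66 for miR-20b-5p.

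**Figure D5:**
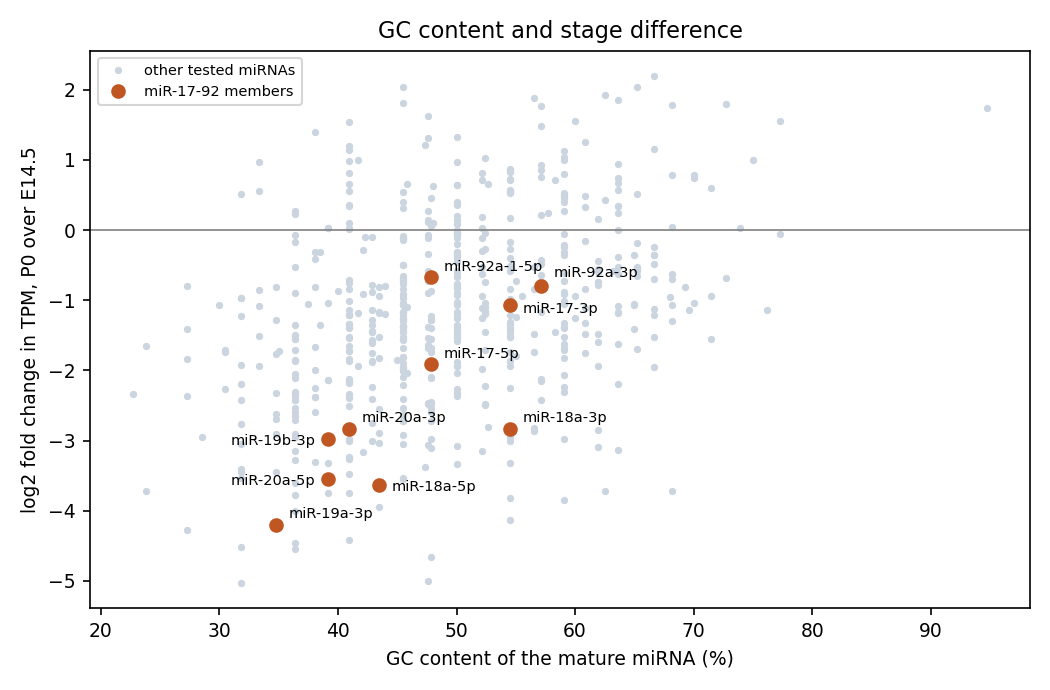
GC content of the mature miRNA (%) against the log2 fold change in TPM of P0 over E14.5 for 582 tested miRNAs (grey), with the 10 members marked and named (orange). miR-19a-3p, the member of lowest GC content, has the most negative value, and miR-92a-3p, of highest GC content, is among the least negative.

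Markers of other cell types were read on both scales, against 32.8% of all tested miRNAs called lower in TPM and 5.22% with median-of-ratios scaling. In TPM both endothelial markers on the list fell, and their summed level went from between 26608 and 44921 TPM at E14.5 to between 5634 and 8158 TPM at P0. In TPM all 5 epithelial markers of the miR-200 family fell, from between 4122 and 23183 TPM to between 500.2 and 1542 TPM, and 6 of 9 stromal markers fell, from between 85580 and 102772 TPM to between 33691 and 46708 TPM. Of the erythroid markers 1 of 5 fell (242 to 417 TPM, then 128 to 194 TPM) and of the leukocyte markers 0 of 4 (632 to 1202 TPM, then 454 to 629 TPM). With median-of-ratios scaling 1 of 2 endothelial, 3 of 5 epithelial, 0 of 9 stromal, 0 of 5 erythroid and 0 of 4 leukocyte markers were called lower, and 1 leukocyte marker was called higher. The median log2 fold changes of the erythroid and leukocyte lists were positive on that scale, 0.16 and 0.43. miR-486a-3p was at 0 in at least 1 library, and no other marker was. Their part in the members' results was not tested. The table holds miRNAs only, so the progenitor identity itself could not be checked against its protein-coding markers.

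Outside the cluster, the 5 miRNAs closest to the mean profile of the main arms were found among 422 candidates with a mean of at least 10 TPM. The measure was the root mean square distance of centred log2(TPM + 1) over the 6 libraries. They were miR-335-3p (0.19), miR-21a-5p (0.22), miR-542-3p (0.28), miR-669f-3p (0.28) and miR-218-5p (0.30), against a median of 1.07 over the candidates. The members' distances to the same profile ran from 0.47 for miR-20a-3p to 1.45 for miR-92a-1-5p; the 5 were picked as the smallest distances, so the sets are not compared. miR-335-3p stood at 3983, 3139 and 3845 TPM at E14.5 and at 1510, 449.7 and 286 TPM at P0, with P0 replicate 1 between the stages. Among member pairs, the distance was smallest between the products of the miR-92a-1 hairpin (0.35) and largest between miR-19a-3p and miR-92a-1-5p (2.55).

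The authors' deposited table gave adjusted p-values below 0.05, with a negative log2 fold change, for 3 members. That table does not state which stage its fold changes are relative to; the direction was inferred from the per-library TPM. According to the authors' deposited table these were miR-18a-5p (-2.13, adjusted p = 0.0089), miR-19a-3p (-3.16, adjusted p = 0.0021) and miR-20a-5p (-2.40, adjusted p = 0.0101). In the authors' deposited table, 5.32% of the 1034 miRNAs were below 0.05 and lower at P0. Log2 fold changes in the authors' deposited table were -0.31 for miR-17-5p (adjusted p = 0.744) and 0.13 for miR-92a-3p (adjusted p = 0.916). The deposited mean signal was returned by median-of-ratios factors, so that scale, and not TPM, is the nearest counterpart here. On it 1 of 10 members was called, and miR-17-5p and miR-92a-3p stood at -0.62 and 0.49.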

How the data were processed

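Small RNA was measured in 6 libraries, 3 at E14.5 and 3 at P0, grouped by the stage in the sample labels. Per the labels' protocols, the library kit was QIAseq miRNA. The submitters' processing notes name featureCounts, DESeq2 1.26.0 and mm10; trimming, the aligner and the use of molecular tags are not given in the sources used here. The authors deposited 1 table of 1104 rows with TPM per library. It also holds, per the file headers, a baseMean (a normalised signal), a log2 fold change with its SE, a test statistic (a score), and p-values and adjusted p-values by the authors. TPM times end minus start, divided by 1 fixed step per library, was a whole number of reads in 100% of values (within 0.1 read), and the recovered reads with median-of-ratios factors from 589 rows returned the deposited baseMean signal.

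Stages were compared with limma 3.58.1 (R 4.3.3; trend, moderated variances) on log2(TPM + 1), two-sided, for every miRNA whose mean reached 1 TPM, with Benjamini-Hochberg adjustment below 0.05; fold changes on this scale understate those of low miRNAs. Arm ratios used limma over 245 hairpins with arms paired within 120 bases, on log2 ratios of TPM + 1. Ratios within the cluster and seed shares used exact permutation tests (scipy 1.17.1). Scripts were tested on simulated data. The floor of 3 reads, at a length step of 21, lay between 0.0863 and 1.14 TPM and covers counting error only. Alternatives were other scalings, limma-voom on recovered reads, filters, a pseudocount of 0.1, summed copies, removal of the GC trend, a replicate block and leaving out each library; combinations of median-of-ratios scaling with a left-out library or with GC removal were chosen after seeing the data. All 10 members are named; relatives and cell-type markers come from lists, and the 5 nearest profiles by the distance rule. The members, lists and tests were chosen with earlier results of these data known.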

Additional observations from a re-analysis of the deposited data

How the results depend on the processing

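Over all miRNAs, 229 were called with TPM, and 73 with median-of-ratios scaling, 58 with upper-quartile scaling and 28 with limma-voom on recovered reads; 7 members were called with TPM and 1 under each of the others. Same-numbered libraries are different litters. Their deviations correlated at 0.19, 0.18 and 0.04 for numbers 1, 2 and 3, against -0.18 to 0.077 between libraries of different numbers. Whether same-numbered libraries share more than a number was not tested. A replicate block gave 247 calls and 7 members, and 56 calls and 2 members with median-of-ratios scaling. Leaving out each library in turn gave between 66 and 410 calls over all miRNAs, 3 to 8 members and 0 to 107 arm ratios. The calls were 111 without E14.5 replicate 1, 66 without E14.5 replicate 3 (3 members), 410 without P0 replicate 1 (107 arm ratios), 114 without P0 replicate 2 and 136 without P0 replicate 3. With median-of-ratios scaling as well, leaving out a library other than P0 replicate 1 gave between 0 and 10 calls and 0 or 1 members; removing the GC trend on that scale gave 71 calls and 2 members. The log2 difference of the summed level of all members was -1.93 in TPM and -0.64 with median-of-ratios scaling, and that of the miR-92 group turned from -0.79 to 0.49. Under median-of-ratios, upper-quartile, limma-voom and blocked median-of-ratios fits the log2 fold changes turned positive for miR-17-3p (0.21, 0.23, 0.19 and 0.21), miR-92a-3p (0.49, 0.51, 0.46 and 0.49) and miR-92a-1-5p (0.60, 0.62, 0.58 and 0.60). With the GC trend also removed, miR-92a-3p stood at 0.13 and miR-92a-1-5p at 0.67, and miR-17-3p was negative (-0.029). Median-of-ratios fits without E14.5 replicates 1, 2 and 3 and P0 replicates 1, 2 and 3 gave 0.30, 0.88, 0.26, 0.67, 0.39 and 0.45 for miR-92a-3p and 0.61, 0.74, 0.43, 0.96, 0.51 and 0.37 for miR-92a-1-5p. For miR-17-3p they gave -0.063, 0.59 and 0.074 without E14.5 replicates 1, 2 and 3 and 0.021, 0.28 and 0.37 without P0 replicates 1, 2 and 3. The arm ratio of miR-92a-1 turned from 0.12 to -0.13 without E14.5 replicate 2 and to -0.08 without P0 replicate 3, with a range from -0.13 to 0.32 over the 6 libraries left out. The cause of these changes was not tested. Depth was lowest in E14.5 replicate 1, where 3 reads corresponded to 1.14 TPM, and every member was above that level in all 6 libraries.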
